A study of Mus musculus with 2 samples.

Results

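Voltage-gated potassium (Kv) channels were examined in mouse mesenteric arteries, the resistance arteries that supply the gut, through the 8 genes Kcna2, Kcna5, Kcnab1, Kcnab2, Kcnd3, Kcnq1, Kcnq5 and Kcns3. The rows of these genes were found by symbol, and all 8 were among the 55573 genes listed in the deposited files. Arteries of wild type C57BL/6 mice at 10 weeks of age were kept in a control solution of 5 mM K+ or a depolarizing solution of 60 mM K+, and the labels give 60 min for both. Per the study's methods, the solutions used for perfusing the arterial bed also contained tetrodotoxin, a blocker of nerve Na+ channels. The comparison asks which transcripts change when the arterial membrane is depolarized. Each condition has 1 RNA-seq library made from a pool of tissue of 2 mice, so differences between the libraries stand without replicates and the conditions could not be tested. The study's account of the sequencing experiment gives 60 min in either solution, as the labels do. The general description of the arterial bed preparation in the study's methods differs: control tissue was taken from the distal side of a ligature. It was harvested before the rest was perfused with 60 mM K+. If this general description held for the sequenced arteries, K+, artery segment and time in solution cannot be told apart.

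Kv channels open when the cell membrane depolarizes and let K+ leave the cell, which repolarizes the membrane. In arterial smooth muscle they limit the opening of the Cav1.2 Ca2+ channel, and with it Ca2+ entry and contraction. A channel is a ring of pore-forming alpha subunits, which may be of different kinds within a subfamily. Kcna2 and Kcna5 encode Kv1.2 and Kv1.5, delayed rectifiers known from arterial myocytes. Kcnd3 encodes Kv4.3, which carries a rapidly inactivating current, and Kcnq1 and Kcnq5 encode Kv7.1 and Kv7.5, which open slowly at voltages near rest. Kcns3 encodes Kv9.3, a silent subunit that forms no channel alone and modifies the channels it joins. Kcnab1 and Kcnab2 encode the cytosolic beta subunits Kvbeta1 and Kvbeta2, which bind Kv1 channels and have no pore.

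The 6 alpha subunit genes carry codons for the K+ selectivity filter, the narrowest part of the pore. Of these stretches, 5 are shown because, among the 8 genes, they separate the alpha from the beta subunits. The signature sought was codons for threonine, any amino acid, glycine, tyrosine and glycine, in frame. It was found in coding sequences of GENCODE vM1 (mm9) in 6 of the 8 genes and in neither Kcnab1 nor Kcnab2. Of 22737 genes with a coding sequence, 117 (0.515%) held it. It was present in 17 of 25 other alpha subunit genes, in 9 of 9 other silent subunit genes and in 0 of 12 other auxiliary subunit genes. Other forms of the filter were not sought, so the absence of this signature does not mark a subunit without a pore. Capitals mark the 15 bases of the signature, read on the coding strand.
Kcna2: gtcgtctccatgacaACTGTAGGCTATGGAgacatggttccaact
Kcna5: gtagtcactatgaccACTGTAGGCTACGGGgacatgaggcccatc
Kcnd3: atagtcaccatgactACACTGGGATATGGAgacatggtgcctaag
Kcnq1: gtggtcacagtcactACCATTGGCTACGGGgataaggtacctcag
Kcns3: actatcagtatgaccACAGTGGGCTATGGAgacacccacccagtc

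These stretches lie on mm9 at chr3:106908127-106908171 (Kcna2, plus strand), chr6:126483748-126483792 (Kcna5, minus strand) and chr12:11098366-11098410 (Kcns3, minus strand), each in 1 exon. In Kcnd3 (chr3:105262817-105461550, plus strand) and Kcnq1 (chr7:150370445-150377366, plus strand) the stretch is interrupted by an intron, and the positions are those of its outer ends. Over the 45 bases, Kcna2 and Kcna5 had 33 in common, and of the 15 capital bases they shared 13. Neither value is particular to this pair: Kcna2 and Kcnd3 also had 33 in common, and Kcna2 and Kcns3 also shared 13. The full CRE, the DNA motif bound by the transcription factor CREB that the study follows, was also sought as TGACGTCA on both strands in the RefSeq promoters of GRCm38.p6, from 250 bases before to 50 bases after each start. Promoters were matched for 7 of the 8 genes, all but Kcnq1. It was in 0 of these 7 genes, compared with 2.03% of the 27025 genes with a promoter. The shorter TGACG, which is also part of the full CRE, was in 1 of the 7, Kcnab2, and in 23.0% of all genes.

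The libraries held 10480918 (5 mM K+) and 11289598 (60 mM K+) reads on genes. Counts were scaled with TMM, the trimmed mean of M-values. The median log2(fold-change) was then -0.0047 over the 14829 genes with 10 reads or more when the libraries were added. All log2(fold-change) values are 60 mM K+ over 5 mM K+, and the 95% exact (Clopper-Pearson) interval of each covers counting error only. Total-count scaling, which also underlies the deposited FPKM values, lowers every log2(fold-change) by 0.21, so FPKM values and TMM-scaled changes are not on 1 scale. Smooth muscle markers, led by Acta2 and Myh11, were by far the highest, with summed FPKM of 19780 and 19360 in 5 mM and 60 mM K+, and all 9 had reads. The summed FPKM was 3345 and 2661 for 7 fibroblast markers, 1429 and 1686 for 9 endothelial markers, 200.3 and 189.3 for 10 Schwann cell and nerve markers, 73.9 and 47.2 for 7 adipocyte markers, 13.0 and 12.3 for 7 macrophage markers and 11.2 and 38.3 for 8 pancreas markers. The 6 lymphocyte markers summed to 0.397 and 0.398. The most abundant markers were Col1a1 and Col1a2 for fibroblasts, Pecam1 and Vwf for endothelium, Uchl1 and Mbp for Schwann cells and nerve, Fabp4 and Cidec for adipocytes, Fcer1g and Csf1r for macrophages, and Ctrb1 and Cpb1 for pancreas. Th, which marks sympathetic nerves, the lymphocyte genes Cd3g and Cd2, and the pancreas genes Prss1 and Amy2a5 had no reads in either library. The median log2(fold-change) of markers with at least 10 reads was 0.05 for smooth muscle (6 of 9 higher), 0.28 for endothelium (7 of 9), -0.12 for fibroblasts (1 of 7), -0.15 for Schwann cells and nerve (2 of 8), -0.86 for adipocytes (1 of 6), -0.31 for macrophages (1 of 7) and 3.27 for pancreas (5 of 5). The part of these shifts in the values of the channel genes was not tested, and in bulk tissue fewer cells of a type cannot be told apart from less RNA per cell.

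Kcna5 and Kcnab1 were the most abundant of the 8 genes, Kcna2 was intermediate, and the other 5 were low. In deposited FPKM, Kcna5 stood at 73.3 (95% exact Poisson interval 70.3 to 76.5) and Kcnab1 at 72.4 (69.2 to 75.7) in 5 mM K+, and these neighbors did not differ beyond counting error. In 60 mM K+, Kcnab1 at 59.75 (56.9 to 62.7) was above Kcna5 at 46.0 (43.7 to 48.4). Kcna2 had 9.67 in 5 mM K+ and 7.75 in 60 mM K+, and Kcns3 had 4.27 and 3.19. Kcnq1 had 2.22 and 4.03 FPKM, so it stood below Kcns3 in the control library and above it in the depolarized library, with overlapping intervals in 60 mM K+. Kcnd3 had 1.17 and 0.865, Kcnq5 had 0.652 and 0.579, and Kcnab2 had 0.334 and 0.0516. Intervals of neighbors also overlapped between Kcnd3 and Kcnq5 in both libraries, and between Kcnq1 and Kcnd3 and between Kcnq5 and Kcnab2 in 5 mM K+.

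**Figure D1:**
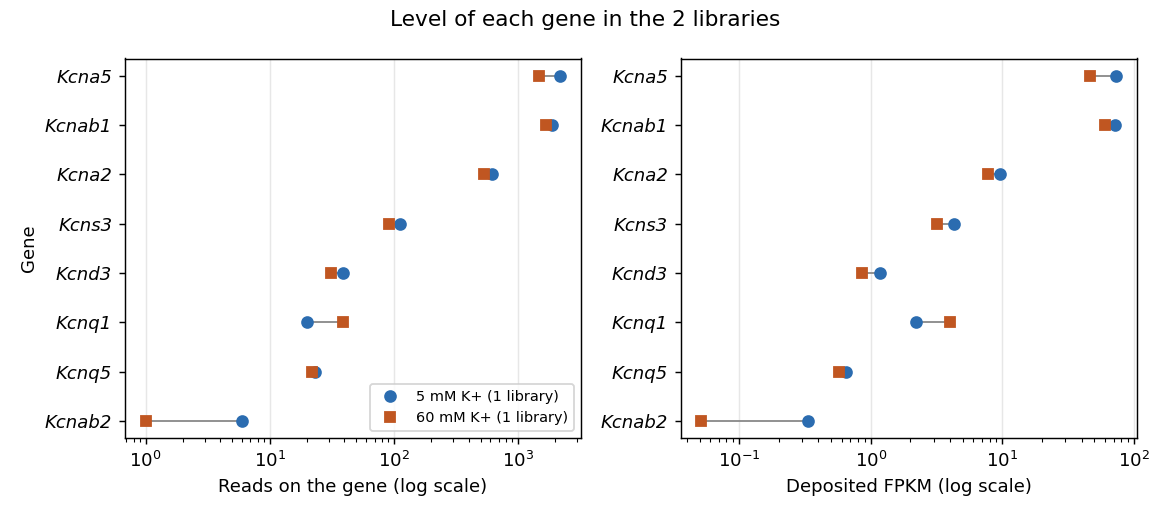
Reads on each of the 8 genes (left) and deposited FPKM (right), both on log scales, with 1 point per library and a line joining the 5 mM K+ and 60 mM K+ libraries. Kcna5 and Kcnab1 stand highest, with 2200 and 1486 reads and 1884 and 1675 reads, and Kcnq1 is the gene with more reads in 60 mM K+.

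The level per length depends on the length the authors divided by. For Kcnq1 the length behind the FPKM was 858 bases, compared with 3087 bases for all its exons in GENCODE vM1, and for Kcnab1 it was 2483 compared with 8595. For Kcna2 the order was opposite, at 6127 and 3456. With all annotated exons as the length, Kcnab1 had 20.9 and 17.3 FPKM, Kcna5 had 69.9 and 43.8, and Kcna2 had 17.1 and 13.7. The order of the 8 genes in 5 mM K+ was the same with both lengths, but the near equality of Kcna5 and Kcnab1 was not kept. In 60 mM K+ the order did depend on the length, since with all annotated exons Kcna5 stood above Kcnab1, and Kcnq1 at 1.12 FPKM stood below Kcns3 at 2.635.

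Among the alpha subunits, Kcna5 was lower in 60 mM K+ and Kcna2 was nearly level. Kcna5 (ENSMUSG00000045534, chromosome 6, 126482571 to 126485573, minus strand, annotated as 1 exon) had 2200 reads in the control and 1486 in the depolarized library. The change was -0.46 on the log2 scale, with a counting interval of -0.56 to -0.37, which is 0.725 of the control level. Kcna2 (ENSMUSG00000040724, chromosome 3, 106904485 to 106909797, plus strand) had 621 and 536 reads, with a log2(fold-change) of -0.11 whose interval of -0.28 to 0.06 included 0. The interval of Kcna5 thus lay wholly below 0 and also below that of Kcna2. Smooth muscle markers, given here because Kv1.5 is a myocyte channel, ranged from -0.53 for Myocd to 0.40 for Tagln. The next lowest value after Myocd was -0.16 for Lmod1, so Kcna5 lay between Myocd and Lmod1 and below all markers but Myocd. Tagln had only 314 and 387 reads, compared with 187183 and 199779 for Acta2. Myocd, Lmod1 and Tagln were not named by rule and were picked for their places in the range.

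The ratio of reads on 2 genes within a library is the same under any scaling of the libraries, and pairs were chosen after the values were seen. Reads on Kcna5 were 3.54 times those on Kcna2 in 5 mM K+ and 2.77 times in 60 mM K+, a change in the ratio of -0.35 on the log2 scale (exact conditional 95% interval -0.55 to -0.16). Against Kcnab1, the ratio of Kcna5 was 1.17 and 0.887, a change of -0.40 (-0.53 to -0.26). Against the smooth muscle myosin gene Myh11, the change in the ratio of Kcna5 was -0.51 (-0.61 to -0.42). By contrast, the change was -0.04 (-0.24 to 0.15) for Kcna2 against Kcnab1. Kcna5 therefore had fewer reads relative to each of these 3 genes in the depolarized library, while the interval for Kcna2 against Kcnab1 included 0.

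Kcna5, Kcnab1 and Kcna2 were the members with 1000 reads or more when the libraries were added (this depth was set with the values known). Among the 4096 genes at that depth, the median log2(fold-change) was 0.13. Of these genes, 110 (2.69%) had a value as low as that of Kcna5 or lower. For Kcna2 the share was 21.95% and for Kcnab1 it was 26.7%. The position of Kcna5 near the low end of well-counted genes is a description of these libraries, and the share is not affected by scaling.

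**Figure D2:**
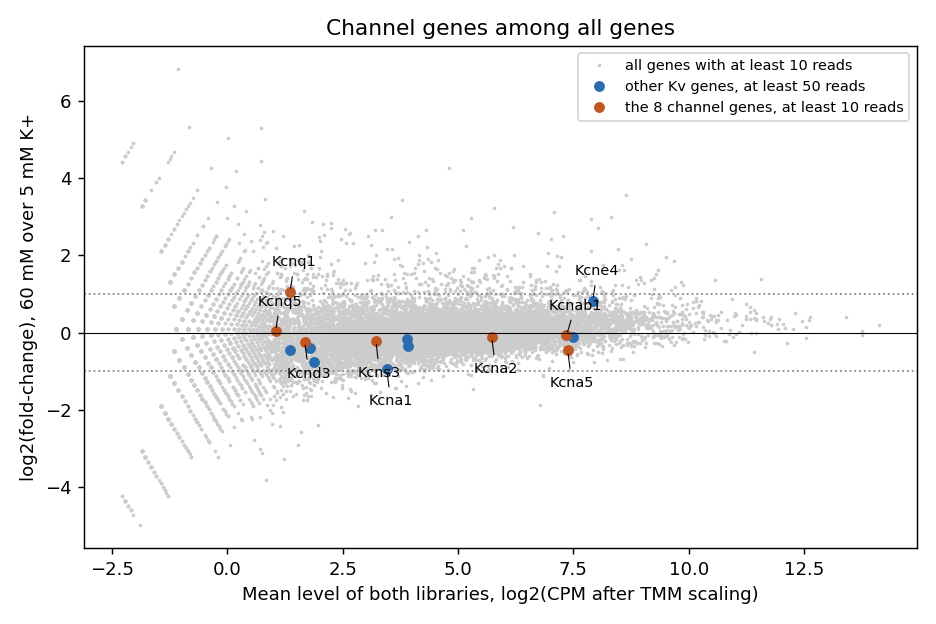
Log2(fold-change) of 60 mM over 5 mM K+ against the mean level of both libraries, in log2 CPM (reads per 1000000 after TMM scaling), for all genes with at least 10 reads (gray), 7 of the 8 genes (orange) and other Kv genes described here with at least 50 reads (blue); dotted lines mark -1 and 1. Kcna5 at -0.46 lies toward the lower edge of the genes of its level, and Kcnq1 at 1.06 lies among sparsely counted genes.

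Kcnd3 and the silent subunit gene Kcns3 had slightly fewer reads in 60 mM K+, with intervals that included 0. Kcnd3 (ENSMUSG00000040896, chromosome 3, 105255248 to 105476920, plus strand) had 39 and 31 reads, a change of -0.23 on the log2 scale (-0.96 to 0.49). It shares 165 exonic bases with 1700095B22Rik on the opposite strand, which had 0 reads in both libraries. Kcns3 (ENSMUSG00000043673, chromosome 12, 11097008 to 11157648, minus strand) had 113 and 91 reads, a change of -0.21 (-0.63 to 0.20). At 31 to 113 reads per library, both intervals include 0 and also -0.46, the value of Kcna5, so neither can be told from the other in these genes.

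The Kv7 genes were sparse and differed from each other in their estimates. Kcnq1 (ENSMUSG00000009545, chromosome 7, 150293159 to 150612955, plus strand) had 20 reads in the control and 39 in the depolarized library. Its log2(fold-change) of 1.06 (0.25 to 1.92) was the only one of the 8 above 1, and its interval lay above 0. RefSeq places the long noncoding RNA Kcnq1ot1, an antisense transcript, inside Kcnq1. The library kit named in the labels does not mark strand, so reads from this pair cannot be told apart where they overlap. In GENCODE vM1, no exonic bases shared by Kcnq1 with another annotated gene were found. Kcnq5 (ENSMUSG00000028033, chromosome 1, 21388484 to 21952023, minus strand) had 23 and 22 reads, with a log2(fold-change) of 0.04 (-0.87 to 0.95). It shares 237 exonic bases with Gm16705 on the opposite strand. The intervals of Kcnq1 and Kcnq5 overlapped.

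Of the beta subunit genes, Kcnab1 was abundant and nearly level, and Kcnab2 was at the edge of detection. Kcnab1 (ENSMUSG00000027827, chromosome 3, 64913306 to 65182145, plus strand) had 1884 and 1675 reads, a change of -0.07 on the log2 scale (-0.16 to 0.03). Kcnab2 (ENSMUSG00000028931, chromosome 4, 151764851 to 151851980, minus strand) had 6 reads in the control and 1 read in the depolarized library. Its ratio was 0.179 of the control level with a counting interval of 0.00389 to 1.47, and it is the only one of the 8 genes under 10 reads. It also shares 125 exonic bases with Gm16334 on the same strand.

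The study's methods name DEGSeq and call a gene at q below 0.005 when its log2(fold-change) is past 1 in either direction. With these thresholds in DEGSeq's random-sampling model, which was chosen and recomputed here because the methods name no model, 0 of the 8 genes were called in either direction. That test compares those libraries, not the conditions. Of 21374 genes with reads, 2.11% were called higher and 1.10% lower in 60 mM K+, or 452 and 235 genes, and these counts were 307 and 542 with total-count scaling. By fold alone, 1 of 7 genes with at least 10 reads, Kcnq1, was more than 2-fold higher and 0 were more than 2-fold lower, beside 5.54% and 5.86% of the 14829 genes. With total-count scaling Kcnq1 was at 0.86, so that 0 of 7 were more than 2-fold higher, beside 4.05% of all genes. The counting interval lay above 0 for 1 of 7, Kcnq1, beside 25.0% of all genes, and below 0 for 1 of 7, Kcna5, beside 20.3%. The median log2(fold-change) of the 7 was -0.11, with 5 values below 0 and 2 above. With total-count scaling the value of Kcnq5 was -0.17, and the intervals of Kcna2 (-0.32), Kcnab1 (-0.28) and Kcns3 (-0.42) lay below 0 as well, which made 4 of 7 genes beside 38.4% of all genes under that scaling. Upper-quartile scaling put 2 of 7 there, Kcna5 and Kcnab1, beside 23.8%.

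**Figure D3:**
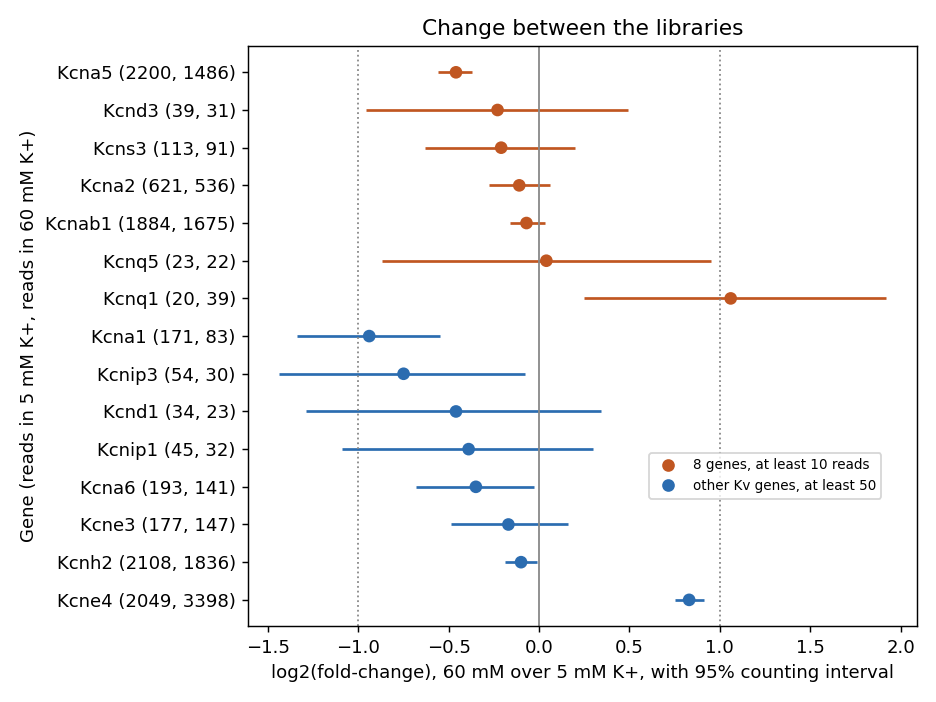
Log2(fold-change) of 60 mM over 5 mM K+ (points) with 95% counting intervals (lines) for 7 of the 8 genes (orange) and other Kv genes described here with at least 50 reads (blue); reads in 5 mM and 60 mM K+ stand beside each name, and dotted lines mark -1 and 1. Kcna5, Kcna1, Kcna6, Kcnh2 and Kcnip3 lie below 0 and Kcnq1 and Kcne4 lie above 0 with intervals that leave out 0.

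The other Kv genes were taken from a list of 46 alpha, silent and auxiliary subunit genes. Of these, 15 had 0 reads in both libraries, 17 had 1 to 9 reads and 14 had at least 10. With TMM scaling, 0 of the 46 were called with the thresholds of the study, beside 2.11% higher and 1.10% lower of all genes with reads. The interval lay above 0 for 3 of the 14 and below 0 for 5, beside 25.0% and 20.3% of all genes with at least 10 reads. The median log2(fold-change) of the 14 was -0.23. Genes with 0 reads included Kcna3, Kcna4 and Kcnb2, for which a count of 0 allows up to 3 reads, or 0.266 CPM in the control and 0.286 CPM in the depolarized library.

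Of the other Kv1 genes, Kcna1 and Kcna6 lie beside Kcna5 on chromosome 6. Kcna1 (chromosome 6, 126586481 to 126595819), which encodes Kv1.1, had 171 and 83 reads, a change of -0.94 on the log2 scale (-1.34 to -0.55). With total-count scaling Kcna1 passed the thresholds of the study as lower. Kcna6 (chromosome 6, 126658347 to 126690680), which encodes Kv1.6, had 193 and 141 reads, a change of -0.35 (-0.68 to -0.03). Kcna5, Kcna1 and Kcna6 lie on the same strand, and the intervals of all 3 were below 0, beside 20.3% of all genes with at least 10 reads. The interval of Kcna2, also a Kv1 gene, included 0. Intervals below 0 were also found on other chromosomes, for Kcnh2 (chromosome 5) and Kcnip3 (chromosome 2). A shared change of the locus was not tested. Kcna6 shares 2343 exonic bases with Gm17456 on the opposite strand, so its reads are uncertain. Kv1.1 and Kv1.6 are well known from nerve, and Schwann cell and nerve markers had a median log2(fold-change) of -0.15 with a range of -1.12 to 0.50; their part in the values of Kcna1 and Kcna6 was not tested.

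Of the other alpha subunits, Kcnh2, which encodes the Kv11.1 (ERG) channel, had 2108 and 1836 reads, a change of -0.10 on the log2 scale (-0.19 to -0.01). Kcnd1, which encodes Kv4.1, had 34 and 23 reads and a value of -0.46 with a wide interval of -1.29 to 0.34. Kcnh3, named here after its values were seen, had 2 and 12 reads, and its interval lay above 0.

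Among the other auxiliary subunits, Kcne4 had the most reads. Kcne4, which encodes a single-pass membrane protein that modifies Kv1 and Kv7 channels, had 2049 reads in the control and 3398 in the depolarized library. Its value of 0.83 on the log2 scale (0.75 to 0.91) was under the limit of 1. Kcne3, of the same family, had 177 and 147 reads and a log2 value of -0.17 (-0.49 to 0.16). Kcnip1 and Kcnip3, which encode Ca2+-binding partners of Kv4 channels, had values of -0.39 (-1.09 to 0.30) and -0.75 (-1.44 to -0.08).

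Within the alpha subunits, Kcna5 took a smaller share of the reads in 60 mM K+. Of 6745 reads on pore-forming and silent subunit genes in 5 mM K+, Kcna5 took 32.6% (95% exact interval 31.5% to 33.75%), and of 5593 in 60 mM K+ it took 26.6% (25.4% to 27.75%). The share of Kcna2 was 9.21% (8.53% to 9.92%) and 9.58% (8.82% to 10.4%). Kcnh2 took 31.25% (30.15% to 32.4%) and 32.8% (31.6% to 34.1%). Kcna5 had the most reads in the control, but its interval there overlapped that of Kcnh2. In the depolarized library Kcnh2 had the most. The shares above are of reads, which were not divided by gene length. By deposited FPKM, Kcnh2 took more than Kcna5 in both libraries, with 43.2% and 44.15% compared with 29.8% and 23.65%. Those values depend on the length, which for Kcnh2 was 1894 bases, compared with 4845 for all its exons. Between the libraries, the intervals of the read shares did not overlap for Kcna5, and they overlapped for Kcna2. These intervals cover counting error in 2 libraries.

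**Figure D4:**
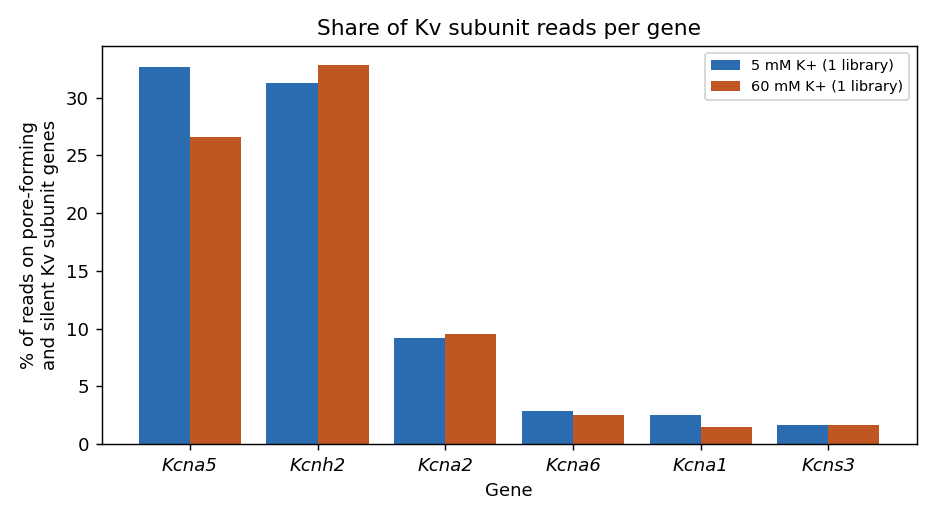
Share of the reads on pore-forming and silent Kv subunit genes, in percent, taken by the genes described here that had at least 1% in either library, with 1 bar per library. The bar of Kcna5 is 32.6% in 5 mM K+ and 26.6% in 60 mM K+.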

How the data were processed

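RNA-seq of mouse mesenteric arteries gave 1 library per condition. Per the labels and the study's methods, the authors used TopHat2 with mm9 and deposited, for each gene, raw counts and FPKM values, which divide the counts by gene length and library total; the submitters' processing notes also list mm8, and name TopHat2 2.0.12, HTSeq 0.6.1 and edgeR 3.0.8. The annotation is not given in the sources used here; 22972 of 55573 listed genes are not in GENCODE vM1. For 31.1% of genes with at least 10 control reads, the length behind the FPKM equaled the mean length of the gene's vM1 transcripts within 1 base.

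Libraries were scaled by TMM (edgeR 4.0.16, R 4.3.3), with 0 reads set to 0.5. DEGSeq's random-sampling model, chosen here because the study's methods name no model of DEGSeq, was recomputed from its formula with Benjamini-Hochberg adjustment and was tested on simulated data. The simulated counts held counting error only, so that check does not cover variation between animals. The quasi-likelihood test of edgeR needs replicates and was not run. Intervals were computed with scipy 1.17.1 at 95% and cover counting error only, at depths of 10480918 and 11289598 reads. Alternatives were scaling by total counts, by upper quartile or by DESeq2 1.42.0 size factors (median of ratios), FPKM with pseudocounts of 0.1 and 1, a minimum of 50 reads or none, the exact binomial test and edgeR's exact test with an assumed coefficient of variation of 0.2. Named genes were the 8 members, other Kv genes with at least 50 reads or called, the most abundant cell type markers and genes overlapping a member; others are named as chosen later, and some genes and sequences that fit the rule are not reported here. Members and lists were chosen with earlier results of these data known. Figures were drawn with matplotlib 3.10.9. Other experiments of the study were not analysed here.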

Additional observations from a re-analysis of the deposited data

How the results depend on the processing

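No paired analysis was possible because there was a single library per condition, and no replicate could be left out. With total counts, every log2(fold-change) is lower by 0.21: it was -0.67 for Kcna5, -0.32 for Kcna2 and -0.28 for Kcnab1, and the intervals of 4 genes (Kcna2, Kcna5, Kcnab1, Kcns3) lay below 0, beside 38.4% of all genes. Upper-quartile scaling put 2 there, Kcna5 and Kcnab1, beside 23.8%. Kcnq1 was under 2-fold with total counts (0.86) and with FPKM and a pseudocount of 1 (0.85). Over all genes, 452 were called higher and 235 lower; total counts called 307 higher and 542 lower, among them 1 other Kv gene, Kcna1, and an assumed coefficient of variation of 0.2 left 65 higher and 8 lower. These settings differ in construction: a scaling shifts all values, and an assumed coefficient of variation adds variation. A pseudocount moves genes with low FPKM most: with 1, Kcnab2 went from -2.48 to -0.13 and Kcna5 from -0.46 to -0.45. None of the 8 genes was called under any scaling, read minimum or test tried. The median of the 8 genes with enough reads stayed between -0.32 and -0.06. With FPKM and pseudocounts only values and medians were recomputed, and the tests changed only the counts of calls. The other Kv gene medians stayed between -0.44 and -0.10. Depth limits Kcnd3, Kcnq1, Kcnq5, Kcns3 and Kcnab2, and the spread between animals could not be estimated for any gene.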
